A study of Rattus norvegicus with 8 samples.

Results

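The genes described here are 8 enzymes and regulators that remove or make reactive oxygen species, chosen by identifier from a table of 32285 rat genes. They are Hmox1, Nqo1, Gclc, Sod1, Sod2, Cat, Txnip and Cybb, and all 8 passed the filter on low counts that left 16313 genes for testing. RNA came from the sinoatrial node, the heart's pacemaker tissue, of Dahl salt-sensitive rats (SS/JrHsdMcwiCrl), an inbred strain whose blood pressure rises on dietary salt. There were 4 Control libraries, from rats fed 0.4% NaCl, and 4 HFpEF libraries (heart failure, preserved ejection fraction), from rats fed 8% NaCl, each for 11 weeks. Every rat on the salt-rich chow belongs to the HFpEF group, so effects of salt, of blood pressure and of the failing heart cannot be told apart. Age and sex are not given in the labels used here, and neither is a separate animal for each library, so the p-values measure the spread between libraries, which may be technical. The table pairs no identifier with a symbol. The 8 symbols come from the definition of the gene group, and neither the node's markers nor those of other cell types could be looked up.

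Cells keep superoxide and hydrogen peroxide low through enzymes placed in different compartments. Superoxide dismutases turn superoxide into hydrogen peroxide, and catalase, glutathione and thioredoxin systems remove the peroxide. NADPH oxidases work in the opposite direction and make superoxide on purpose, above all in phagocytes. Many of the protective genes are switched on by the transcription factor Nrf2, which binds a short DNA element, the antioxidant response element, near them. Hmox1, Nqo1 and Gclc are textbook Nrf2 targets.

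Of the 8 genes, Hmox1 and Cybb rose in HFpEF (edgeR quasi-likelihood test, Benjamini-Hochberg adjusted p of 0.05 or less, termed called below), 0 fell and 6 did not pass. Among those 6, Sod1 was lower at an edgeR unadjusted p under 0.05 and was called by DESeq2. Of all 16313 tested genes, in either direction, 3191 had such an unadjusted p and 1248 were called by DESeq2. Over all 16313 tested genes 1.94% were called, and 1.54% were called and higher in HFpEF. Hmox1 makes the enzyme that breaks down haem, and Cybb makes the catalytic subunit of the phagocyte NADPH oxidase. The other Nrf2 targets of the group, Nqo1 and Gclc, were not called. The median log2 fold change was 0.09 over the 8 genes and -0.00409 over all tested genes, and the median size regardless of sign was 0.13 and 0.13. In 3 of the 8 genes (Hmox1, Sod1 and Cybb) the groups did not overlap in normalised CPM, against 12.5% of all tested genes. The 8 genes were chosen with earlier results of these data known. Their shares beside those of all tested genes are therefore a description and lend no support.

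The table of RefSeq promoter windows (GRCr8, a later build than the rn6 of the counts) held 6 of the 8 genes, and Hmox1 and Txnip were not matched. Each window spans 300 bases, from 250 before the annotated start to 50 after it. The stretches below are the last 150 bases before the start. Cybb is shown as the called gene with a window. Sod1 and Sod2 are shown as the pair of superoxide dismutases, of which Sod2 held the antioxidant response element core. Capitals mark matches to the 5 motifs described next, on either strand, and each line reads 5′ to 3′ along the gene's own strand.
Cybb (GRCr8, chrX:16065066-16065215, minus strand): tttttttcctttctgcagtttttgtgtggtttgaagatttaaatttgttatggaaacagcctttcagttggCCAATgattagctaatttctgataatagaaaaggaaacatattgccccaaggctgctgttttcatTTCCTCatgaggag
Sod1 (GRCr8, chr11:42942673-42942822, plus strand): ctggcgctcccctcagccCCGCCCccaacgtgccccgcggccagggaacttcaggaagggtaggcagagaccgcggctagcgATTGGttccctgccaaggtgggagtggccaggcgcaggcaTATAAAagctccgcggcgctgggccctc
Sod2 (GRCr8, chr1:50050169-50050318, minus strand): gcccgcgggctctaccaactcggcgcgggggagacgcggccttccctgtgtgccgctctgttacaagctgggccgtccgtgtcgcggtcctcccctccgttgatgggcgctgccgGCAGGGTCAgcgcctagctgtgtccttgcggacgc

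The antioxidant response element core, TGACNNNGC, occurred in 1 of the 6 windows, that of Sod2, at -35 to -27 from the start on the opposite strand. It occurred in 12.1% of all 33469 windows of the table. Bases beyond the windows were not searched, so an element farther from the start of Nqo1 or Gclc would be missed. Hmox1 had no window. The PU box, GAGGAA, a core recognised by the myeloid factor PU.1, lay at -14 to -9 in Cybb on the opposite strand. It was found in 3 of the 6 windows and in 27.6% of all windows. The uncalled genes Gclc (-208 to -203) and Cat (-200 to -195) held it as well. General promoter elements made up the rest. TATAAA was present in 3 of the 6 windows (14.2% of all), at -28 to -23 in Sod1, and CCAAT in 4 (37.5% of all), at -79 to -75 and again further upstream in Cybb. The GC box, GGGCGG, was present in 4 (33.1% of all), at -132 to -127 in Sod1. Both strands were searched, and 1 pair of matches overlapped, a PU box and a CCAAT box in Cat that share 1 base. Such matches describe letters in a short window and say nothing of whether a factor binds there. The 4 motifs other than the antioxidant response element were chosen after the sequences were seen.

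Hmox1 (ENSRNOG00000014117) encodes haem oxygenase 1, the inducible enzyme that opens haem into biliverdin, iron and carbon monoxide. Its levels are given in normalised CPM, counts divided by the scaled library total, a scale that does not correct for transcript length and so is not used to compare genes. The Control libraries 1 to 4 stood at 2.87, 3.57, 2.70 and 2.64 CPM, and the HFpEF libraries 1 to 4 at 17.4, 6.86, 11.5 and 7.24 CPM. Every HFpEF library was above every Control library, and the lowest HFpEF value was 1.92 times the highest Control value. HFpEF replicate 1 was the highest, at 5.93 times the geometric mean of the Control libraries (their mean on the log2 scale). HFpEF replicates 2 and 4 were the lowest of their group, at 2.35 and 2.48 times that value. Means given with an SD are arithmetic. The mean went from 2.95 ± 0.428 to 10.7 ± 4.89 CPM (SD over 4 libraries per group), a 3.65-fold rise (95% interval 2.29 to 5.81; log2 fold change 1.87, standard error 0.30; edgeR adjusted p = 0.0246). By p it stood at place 96 among the tested genes. In such bulk tissue, more cells that carry a transcript and more of it per cell cannot be told apart.

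The spread of Hmox1 differed in size between the groups. Its coefficient of variation was 14.5% in Control, where counting error alone would give 9.57% at the 95 to 133 counts per library. In HFpEF it was 45.5%, where counting error would give 5.17%. Its within-group SD on the log2 scale was larger than that of 87.8% of tested genes. With 1 library left out, edgeR called 22 to 332 of all tested genes, against 316 with all 8 libraries. The Hmox1 call was lost without Control replicate 1, 2, 3 or 4 or without HFpEF replicate 3 (edgeR adjusted p = 0.100, 0.0584, 0.0884, 0.0564 and 0.0513), and with limma-voom (adjusted p = 0.0535), while the log2 fold change ran only from 1.53 to 2.03 when 1 library was left out.

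**Figure D1:**
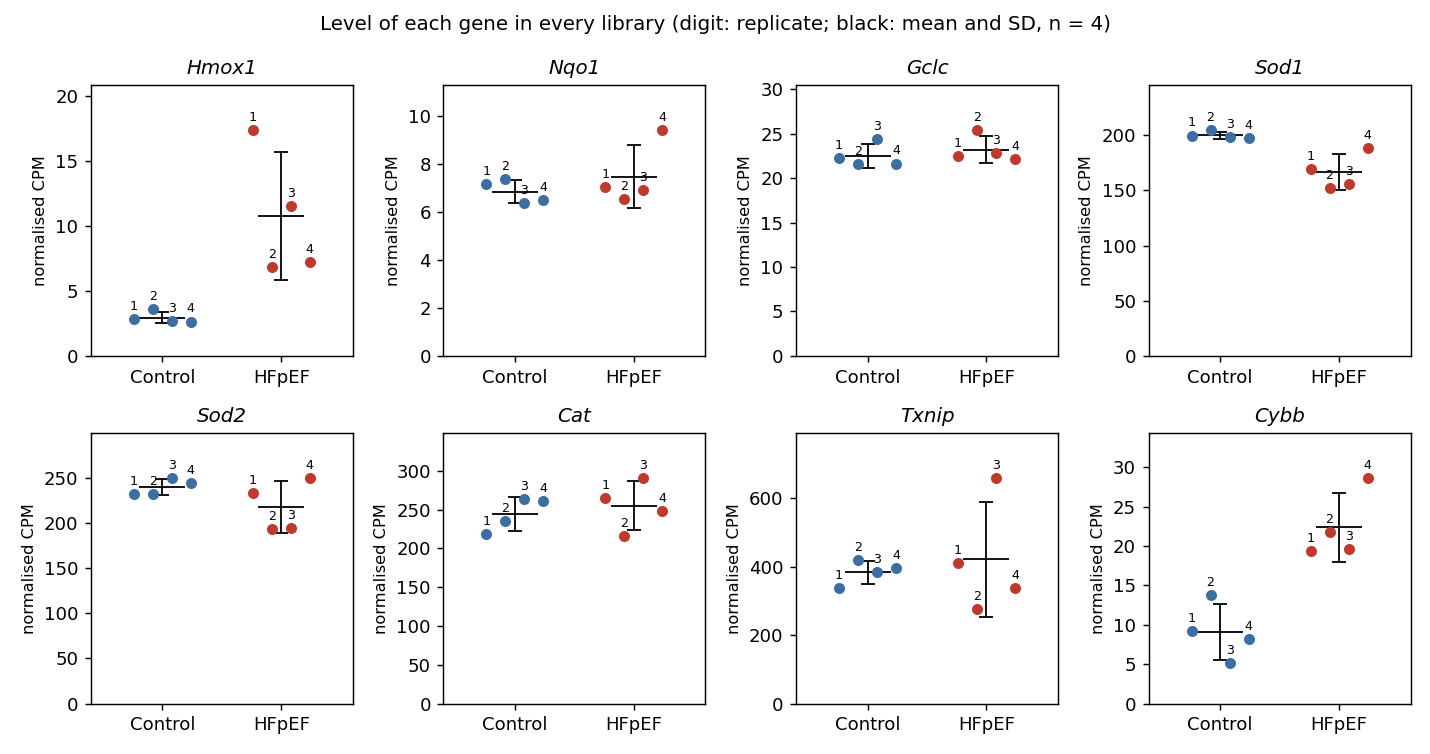
Normalised CPM (vertical axes, each from 0) of the 8 genes in the 4 Control (blue) and 4 HFpEF (red) libraries; digits are replicate numbers, and black bars are the mean and SD. Hmox1 and Cybb have all HFpEF points above the Control points, Sod1 has all of them below, and the groups of the other 5 genes overlap.

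Cybb (ENSRNOG00000003622) encodes gp91-phox, the membrane subunit that passes electrons from NADPH to oxygen to make superoxide. Control libraries 1 to 4 stood at 9.20, 13.7, 5.16 and 8.16 CPM, and HFpEF libraries 1 to 4 at 19.4, 21.8, 19.6 and 28.6 CPM. Again no value was shared: the lowest HFpEF library was 1.41 times the highest Control library. The mean went from 9.06 ± 3.55 to 22.3 ± 4.34 CPM (SD over 4 libraries per group), a 2.47-fold rise (95% interval 1.63 to 3.73; log2 fold change 1.30, standard error 0.26; edgeR adjusted p = 0.0470). In Cybb the Control group was the more spread, with a highest library 2.66 times its lowest and a coefficient of variation of 39.2%, against 1.48 times and 19.4% in HFpEF.

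Cybb lay close to the threshold, and its call depended on the libraries included. It was lost without Control replicate 1, 3 or 4 and without HFpEF replicate 1, 2, 3 or 4 (edgeR adjusted p from 0.0556 to 0.146), and was kept without Control replicate 2 (edgeR adjusted p = 0.0347), the highest Control library. It was also lost with library totals as the only scaling and with robust = TRUE (edgeR adjusted p = 0.0708 and 0.0563). When 1 library was left out, the log2 fold change of Cybb ran from 1.11 to 1.57. The calls over all tested genes then ranged from 22 to 332, against 316 with all 8 libraries. The expected count of Cybb was not a whole number in 7 of the 8 libraries, which means that some reads were shared out between it and another gene. How many reads is not given, and the level of Cybb carries that uncertainty as well. The gene is known from phagocytes. Markers of macrophages and other leukocytes could not be named in the table, and the part of such cells in the rise of Cybb or Hmox1 was not tested.

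Hmox1 and Cybb were each above all Control libraries in all 4 HFpEF libraries, but not in the same order. HFpEF replicate 1 was the highest for Hmox1 and the lowest of its group for Cybb, at 2.27 times the Control geometric mean. For Cybb it was nearly level with HFpEF replicate 3 (19.4 and 19.6 CPM), so the order of these libraries is uncertain. HFpEF replicate 4 was the highest for Cybb, at 3.35 times the Control geometric mean, and near the bottom of its group for Hmox1. Among Control libraries, replicate 2 was the highest for each of these genes. With 4 libraries per group no correlation was computed.

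**Figure D2:**
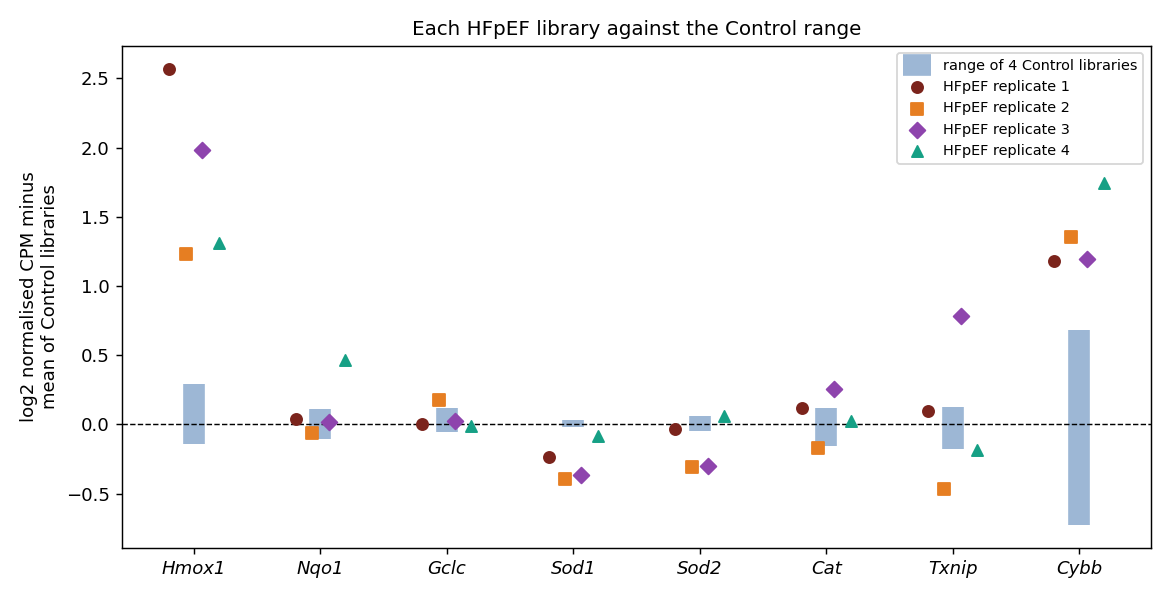
Log2 normalised CPM of each HFpEF library minus the mean of the Control libraries (vertical axis) for the 8 genes; blue bars are the range of the 4 Control libraries. All 4 HFpEF libraries clear the Control range upward in Hmox1 and Cybb and downward in Sod1. Nqo1 and Gclc each have 1 HFpEF library outside that range, and Sod2, Cat and Txnip each have 3, some only just. The farthest of these is Txnip in HFpEF replicate 3 at 0.78.

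Neither of the other Nrf2 targets in the group passed the test. Nqo1 (ENSRNOG00000012772), which reduces quinones, stood at 7.17, 7.39, 6.37 and 6.51 CPM in Control libraries 1 to 4 and at 7.05, 6.54, 6.93 and 9.43 CPM in HFpEF libraries 1 to 4. Only HFpEF replicate 4 was above the Control range. The log2 fold change of Nqo1 was 0.13 (95% interval -0.16 to 0.41, edgeR adjusted p = 0.624), and without that library it was -0.0036. Gclc (ENSRNOG00000006302) encodes the catalytic subunit of glutamate-cysteine ligase, which performs the rate-limiting step of glutathione synthesis. It stood at 22.2, 21.6, 24.4 and 21.7 CPM in Control libraries 1 to 4 and at 22.5, 25.4, 22.8 and 22.2 CPM in HFpEF libraries 1 to 4. These ranges overlapped, with HFpEF replicate 2 above all Control libraries, and Gclc had a smaller within-group spread than most genes, exceeding only 17.6% of those tested. Its log2 fold change was 0.05 (95% interval -0.10 to 0.20, edgeR adjusted p = 0.749), so the interval reaches a change of -6.92% at one end and 14.6% at the other. The interval of Nqo1 is wider and reaches -10.5% and 33.3%. Neither interval reaches the lower bound of the Hmox1 rise, 1.19 on the log2 scale. The difference between these genes was not itself tested, and neither was any part of Nrf2 in these levels.

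The superoxide dismutases had lower means in HFpEF, and neither passed the test. Sod1 (ENSRNOG00000002115), the copper-zinc enzyme of the cytosol, stood at 199.8, 204.7, 198.1 and 197.9 CPM in Control libraries 1 to 4. In HFpEF libraries 1 to 4 it stood at 169.6, 152.5, 155.6 and 188.9 CPM. Control libraries of Sod1 lay within 1.03 times of each other, with a coefficient of variation of 1.58% beside 1.16% from counting error alone, and all 4 HFpEF libraries lay below them. HFpEF replicate 4 came nearest, at 0.954 times the lowest Control library. The mean of Sod1 was 200.1 ± 3.16 CPM in Control and 166.7 ± 16.6 CPM in HFpEF (SD, n = 4 each). Its log2 fold change was -0.26 (standard error 0.07, 95% interval -0.43 to -0.10), or -16.7%. Its unadjusted p was 0.00552 and its edgeR adjusted p 0.0978. DESeq2 called it (adjusted p = 0.0213), and so did edgeR without HFpEF replicate 4 (adjusted p = 0.0425), with the adjusted p between 0.0960 and 0.229 under the other alternatives.

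Sod2 (ENSRNOG00000019048), the manganese enzyme of the mitochondrial matrix, stood at 231.7, 232.3, 249.8 and 244.3 CPM in Control libraries 1 to 4. In HFpEF libraries 1 to 4 it stood at 233.6, 193.2, 194.6 and 249.9 CPM. HFpEF replicates 2 and 3 were below the Control range and were also the lowest libraries for Sod1. HFpEF replicate 1 lay inside the Control range, and HFpEF replicate 4 was barely above its upper edge. The log2 fold change of Sod2 was -0.14 (95% interval -0.34 to 0.07, edgeR adjusted p = 0.446), or -9.06%. Unlike Sod1, its groups therefore overlapped, and its interval includes no change as well as a difference of -21.1%.

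**Figure D3:**
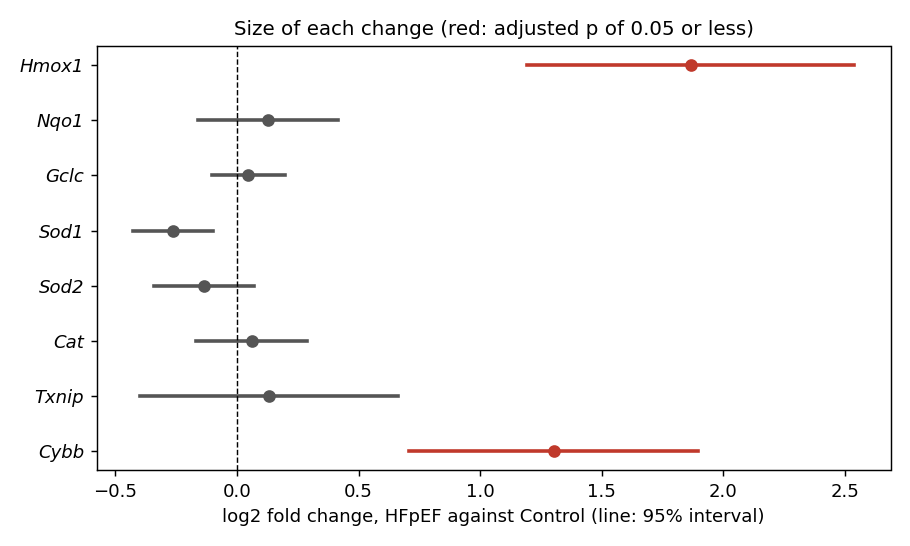
Log2 fold change of each gene, HFpEF against Control (points), with its 95% interval (lines); red marks an edgeR adjusted p of 0.05 or less. Hmox1 and Cybb lie at 1.87 and 1.30, the interval of Sod1 ends at -0.10, and those of the other 5 genes include 0.

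Catalase, which breaks hydrogen peroxide down to water and oxygen, mostly in peroxisomes, was not called. Cat (ENSRNOG00000008364) stood at 218.5, 234.9, 264.3 and 261.7 CPM in Control libraries 1 to 4 and at 264.9, 216.5, 291.0 and 248.6 CPM in HFpEF libraries 1 to 4. The lowest and the highest of these values were HFpEF libraries, so the Control range lay inside that of HFpEF. Its log2 fold change was 0.06 (95% interval -0.17 to 0.29, edgeR adjusted p = 0.790), and -0.0092 without HFpEF replicate 3. The expected count of Cat was not whole in any of the 8 libraries, so some reads were shared with another gene in each. How many reads is not given.

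Txnip (ENSRNOG00000021201) encodes a protein that binds and inhibits thioredoxin and whose transcription follows glucose supply. Control libraries 1 to 4 stood at 338.4, 418.6, 384.4 and 395.9 CPM. HFpEF libraries 1 to 4 stood at 409.95, 277.7, 659.9 and 337.7 CPM. HFpEF replicate 3 was the highest of the 8 libraries and HFpEF replicate 2 the lowest, a 2.38-fold range within the group against 1.24-fold in Control. The means were 384.3 ± 33.7 and 421.3 ± 168.0 CPM (SD, n = 4 each). Its log2 fold change was 0.13 (95% interval -0.40 to 0.66, edgeR adjusted p = 0.802), and -0.17 without HFpEF replicate 3. The coefficient of variation of Txnip was 39.9% in HFpEF and 8.78% in Control, where counting error alone would give 0.831% and 0.838%. Its interval is the widest of the 6 uncalled genes, from -24.1% to 58.3%.

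**Figure D4:**
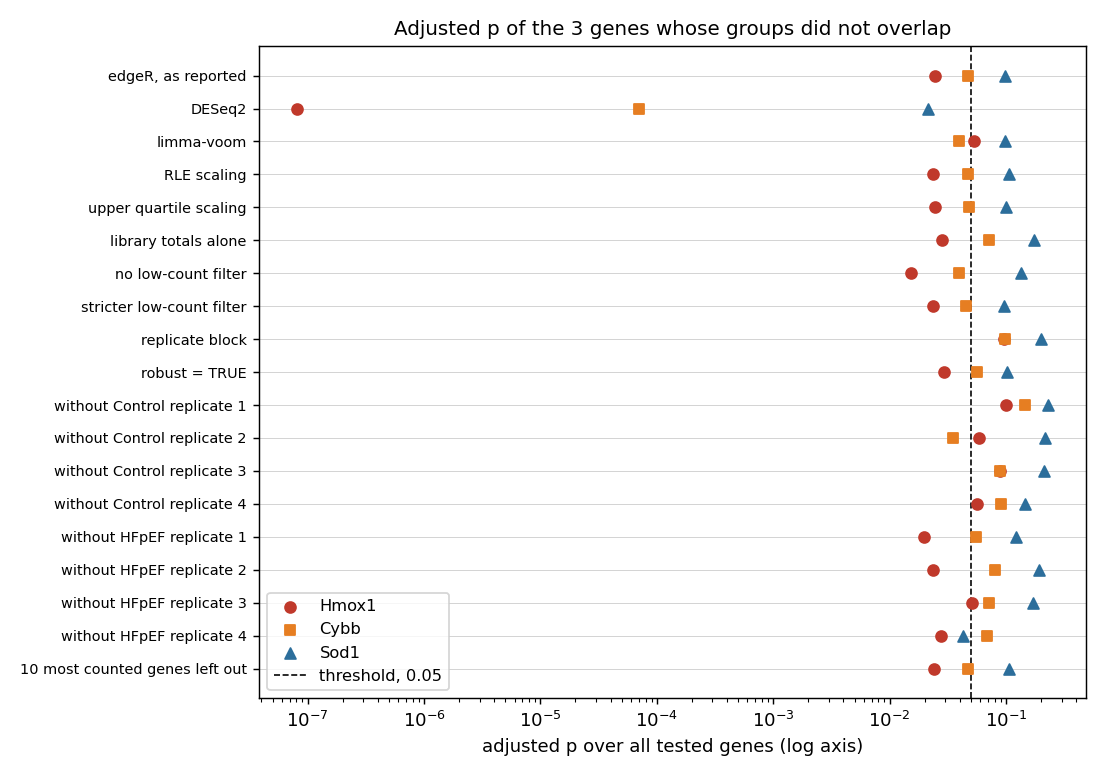
Adjusted p (horizontal, log axis) of Hmox1, Cybb and Sod1 in the reported fit and 18 alternatives (vertical), with the threshold of 0.05 dashed. Hmox1 was at or under the threshold in 11 of the 18 alternatives, Cybb in 8 and Sod1 in 2.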

How the data were processed

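Total RNA depleted of ribosomal RNA was sequenced in 8 libraries, per the labels' protocols. The authors deposited 1 table of RSEM expected counts per Ensembl gene, with no normalization; the submitters' processing notes name Bowtie2 2.1.0, RSEM 1.2.15 and the build rn6. Which annotation and strand setting were used is not given in the sources used here, so reads of antisense or overlapping genes may not have been told apart. Totals ran from 31774820 to 38889395 per library. Pairs of libraries within a group differed by more than counting error (chi-square over degrees of freedom 19.3 to 87.5), and all 8 were used.

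Expected counts were rounded, filtered with filterByExpr, scaled by TMM and tested across all genes by edgeR 4.0.16's quasi-likelihood test (R 4.3.3), two-sided, with Benjamini-Hochberg adjustment. Standard errors and 95% intervals were derived from the F statistic; the intervals are per gene and not adjusted for the number tested. A count was whole within 0.005. The script was checked on simulated counts in which each gene had the same dispersion in both groups. That check does not cover unequal spread, as seen in Hmox1 and Cybb. Alternatives used DESeq2 1.42.0, limma-voom (limma 3.58.1), other scalings and filters, a replicate block, robust = TRUE and each library left out; leaving out the 10 most counted genes was added after seeing the data. The 8 genes and the lists were chosen with earlier results of these data known, and all 8 are named whatever their p. Further pathway lists (glutathione, thioredoxin, Nrf2, oxidant enzymes) and the cell type marker lists were not run, because 0 identifiers could be paired with symbols. Promoter sequences and starts come from RefSeq (GRCr8).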

Additional observations from a re-analysis of the deposited data

How the results depend on the processing

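The 316 called genes became 1248 with DESeq2, 223 with limma-voom, 311 with robust = TRUE and 169 with library totals as the only scaling. They became 22 to 332 when 1 library was left out. Of the 8 genes 2 were called; the number was 3 with DESeq2 (Sod1 added, lower), 1 with limma-voom (Cybb), with library totals alone (Hmox1) and with robust = TRUE (Hmox1), and 0 to 2 when 1 library was left out. It was 0 without Control replicates 1, 3 or 4 or HFpEF replicate 3. There edgeR gave 3 of the 8 genes an unadjusted p under 0.05 each time, and 2403 to 3067 of all tested genes. With the replicate block edgeR called 6 genes and 0 of the 8 (Hmox1 adjusted p = 0.0966, Cybb adjusted p = 0.0988), with 2568 genes and 3 of the 8 at an unadjusted p under 0.05. The labels do not say that the numbers pair the libraries. For numbers 1 to 4 the deviations from the group means had correlations of -0.022, -0.056, 0.068 and -0.16 between the groups. A library's best match carried its own number in 2 of 8 cases. Sign changes occurred only with 1 library left out: Nqo1 ran from -0.0036 to 0.19, Cat from -0.0092 to 0.14 and Txnip from -0.17 to 0.29 (log2 fold change). Hmox1, Cybb, Gclc, Sod1 and Sod2 kept their sign in all 18 alternatives. For Hmox1, Cybb and Sod1, whose groups do not overlap, this adds no support. It adds none for Gclc and Sod2 either, because the alternatives reuse the same libraries. The log2 fold change of Gclc came down to 0.0047 without HFpEF replicate 2. The lowest counts were those of Hmox1 in Control, 95 to 133 per library, followed by Cybb in Control, 197.29 to 511.33, and Nqo1, 207 to 345, which limits the precision for these genes.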

Other observations

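Ratios of expected counts within a library do not depend on the scaling between libraries, and were looked at after the values above were known, with no test. The count ratio of Sod2 to Sod1 was 1.16, 1.14, 1.26 and 1.23 in Control libraries 1 to 4 and 1.38, 1.27, 1.25 and 1.32 in HFpEF libraries 1 to 4. HFpEF replicate 3 thus lay inside the Control range and the other HFpEF libraries above it. HFpEF replicate 2 was only just above (1.267, against 1.261 in Control replicate 3), so its place is uncertain. The count ratio of Cat to Sod1 was 1.09, 1.15, 1.33 and 1.32 in Control and 1.56, 1.42, 1.87 and 1.32 in HFpEF, where replicate 4 lay inside the Control range. The count ratio of Txnip to Sod2 was 3.39 in HFpEF replicate 3 and between 1.35 and 1.80 in the other 7 libraries. The count ratio of Hmox1 to Cybb was 0.897, 0.315, 0.589 and 0.253 in HFpEF libraries 1 to 4, a range that holds all 4 Control libraries, 0.312, 0.260, 0.522 and 0.324.

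Among 16 sets of 4 values (8 genes in each group), 0 held a library that stood apart by Dixon's test. The largest gap, as a share of the range, was 0.826, for Nqo1 in HFpEF (replicate 4 high), just under the critical value. Sets of 4 allow only extreme gaps to be found.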
